A study of Homo sapiens with 36 samples.

Results

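Noncoding RNAs of 3 kinds were followed through RNA-seq of 2 human breast cell lines. The group held 9 genes of the 60725 Ensembl genes in the tables and was fixed by name. NEAT1 and MALAT1 are long RNAs kept in the nucleus, MIR205HG, MIR31HG, MIR22HG, MIR17HG and H19 are hosts of microRNAs, and SNHG1 and GAS5 are hosts of small nucleolar RNAs (snoRNAs). The 36 libraries formed 18 groups of 2. In MCF-10A ER-Src cells, which are non-transformed basal breast epithelial cells with a v-Src protein fused to part of the estrogen receptor, which makes it inducible, 10 groups combined tamoxifen (TAM, the transforming condition) or ethanol (ETH) with a control siRNA (Ctrli) or siRNA pools against YAP (YAPi), TAZ (TAZi), STAT3 (STAT3i) or JUNB (JUNBi). All of these cells, controls included, carried the ER-Src fusion. The labels name the kinase inhibitor AZD0530 beside tamoxifen, and neither its use in each library nor the hours of treatment were stated per library. MDA-MB-231, a triple-negative breast cancer line, was studied in 2 sets without tamoxifen. Set 1 held Ctrli, YAPi, TAZi, YAPi_TAZi (both siRNA pools) and TEADi (siRNAs against the TEAD family), and set 2 held its own Ctrli with JUNBi and STAT3i. The labels do not say that the 2 libraries of a group came from separate cultures, so that p-values measure only the spread between these libraries.

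NEAT1 is made as a short polyadenylated form and as a long form with an unusual 3′ end, and the long form is the scaffold of paraspeckles, nuclear bodies built around proteins such as NONO and SFPQ. MALAT1 lies in nuclear speckles and, like the long form of NEAT1, ends in a triple helix and not in a conventional poly(A) tail. A microRNA host transcript is cut by the nuclease complex of DROSHA and DGCR8 to release a hairpin, from which DICER1 makes the mature microRNA. Mature microRNAs pair with messenger RNAs through their seed, bases 2 to 8. RNA-seq reads the host RNA, and its amount need not follow that of the microRNA. SNHG1 and GAS5 release snoRNAs from their introns, and their spliced RNAs are broken down during translation because they hold only short reading frames. GAS5 belongs to the genes with a 5′ terminal oligopyrimidine tract, as the genes of ribosomal proteins do.

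The microRNAs carried by the 5 hosts are shown with the seed in capitals, so that hosts can be set apart by what they can release. Sequences are those of RefSeq (GRCh38.p14) and were not measured in these libraries.
hsa-miR-205-5p: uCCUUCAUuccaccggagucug
hsa-miR-31-5p: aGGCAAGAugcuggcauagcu
hsa-miR-22-3p: aAGCUGCCaguugaagaacugu
hsa-miR-17-5p: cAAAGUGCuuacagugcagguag
hsa-miR-20a-5p: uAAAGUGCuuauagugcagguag
hsa-miR-18a-5p: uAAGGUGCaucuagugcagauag
hsa-miR-19a-3p: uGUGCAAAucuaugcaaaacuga
hsa-miR-19b-3p: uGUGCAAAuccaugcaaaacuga
hsa-miR-92a-3p: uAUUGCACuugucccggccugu
hsa-miR-675-5p: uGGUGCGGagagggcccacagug
MIR205HG, MIR31HG, MIR22HG and H19 each carry microRNAs of a seed shared with no other host shown. MIR17HG carries 6 hairpins, in which miR-17-5p and miR-20a-5p share the seed AAAGUGC, miR-19a-3p and miR-19b-3p share GUGCAAA, and miR-18a-5p and miR-92a-3p stand alone. The hairpin of miR-22 lies in an exon of MIR22HG (chr17:1713903-1713987, minus strand), whereas that of miR-205 lies in an intron of MIR205HG (chr1:209432133-209432242, plus strand), and that of miR-31 lies in an intron of MIR31HG. Those of H19 and MIR17HG lie in an intron of the transcript annotated as canonical and in an exon of other transcripts. Of the 10 microRNA genes searched by name, 1 had a row in the tables, and it was at 0 counts in all libraries.

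Identifiers are those of the tables, and the genes are placed as in GENCODE version 44 (GRCh38). NEAT1 (ENSG00000245532.5) spans chr11:65422774-65445540 and MALAT1 (ENSG00000251562.7) chr11:65497640-65508073, both on the plus strand and each with 1 exon in its main transcript. MIR205HG (ENSG00000230937.9) lies at chr1:209428817-209432848 on the plus strand, MIR22HG (ENSG00000186594.12) at chr17:1711447-1717174 on the minus strand, MIR17HG (ENSG00000215417.10) at chr13:91347686-91397592 on the plus strand, MIR31HG (ENSG00000171889.3) at chr9:21380073-21559891 on the minus strand, and H19 (ENSG00000130600.15) at chr11:1995166-2004552 on the minus strand. SNHG1 (ENSG00000255717.6) lies at chr11:62851978-62855953 and GAS5 (ENSG00000234741.7) at chr1:173858559-173868882, both on the minus strand. An exon of MIR22HG overlaps the antisense gene WDR81, and MALAT1 overlaps the antisense transcript TALAM1. Whether reads were counted by strand is not stated, so reads of such partners cannot be told apart.

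The starts of MIR22HG and MIR205HG are shown because these 2 microRNA hosts were called under knockdown in ER-Src, in opposite directions. Each window runs from 250 bases before to 50 bases after the RefSeq start, 5′ to 3′ along the gene, and capitals mark CCAAT or its complement ATTGG.
MIR22HG, chr17:1716161-1716460, minus strand, GRCh38.p14: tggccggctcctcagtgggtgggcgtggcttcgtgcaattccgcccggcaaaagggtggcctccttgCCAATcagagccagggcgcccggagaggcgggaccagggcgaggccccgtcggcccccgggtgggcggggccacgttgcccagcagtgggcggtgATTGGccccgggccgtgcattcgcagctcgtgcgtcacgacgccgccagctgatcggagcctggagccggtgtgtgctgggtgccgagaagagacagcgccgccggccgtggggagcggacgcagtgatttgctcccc
MIR205HG, chr1:209428570-209428869, plus strand, GRCh38.p14: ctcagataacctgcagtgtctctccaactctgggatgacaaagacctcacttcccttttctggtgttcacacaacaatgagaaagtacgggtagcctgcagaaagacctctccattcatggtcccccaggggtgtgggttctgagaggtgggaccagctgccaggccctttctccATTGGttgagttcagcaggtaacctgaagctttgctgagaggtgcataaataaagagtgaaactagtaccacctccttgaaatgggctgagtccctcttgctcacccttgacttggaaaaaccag
On either strand, neither window held the letters TGANTCA (the AP-1 motif, found in 7.71% of 35116 such windows), TGACGTCA (the cAMP response element, 1.85%), TTCNNNGAA (the STAT motif, 7.66%) or GGAATG (the TEAD motif, 14%). CCAAT occurred in 34.6% of all windows. Counted from the start, it began at -183 and -88 in MIR22HG and at -75 in MIR205HG. Windows were held for 8 of the 9 genes, all but NEAT1, and those of GAS5 and MIR17HG held CCAAT too.

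Depth was 6416159 to 19153233 expected counts in ER-Src, 1411300 to 2784553 in the 8 set 1 knockdown libraries, and 7290495 to 18076140 in the other 8 MDA-MB-231 libraries. RNAs without a poly(A) tail (7 listed) took 8.71% to 11.8% of counts in ER-Src and the set 1 knockdowns, but at most 0.0112% in the set 1 controls and set 2. Levels of the members were therefore compared only between libraries of the same kind, and the set 1 controls entered no test. KRT5, a basal keratin, stood at 1012 to 2622 TPM in ER-Src and at 0 to 11.5 TPM in MDA-MB-231. KRT14, KRT17, TP63 and CDH1, also listed as basal, were lower in every MDA-MB-231 library than in any ER-Src library. ITGB4 and LAMB3 of that list were higher in the set 1 controls and set 2 (LAMB3 at least 156.45 TPM, against at most 93.86 TPM in ER-Src). VIM and AXL, markers of the mesenchymal-like line, were higher in every MDA-MB-231 library than in any ER-Src library. SPARC, listed with them, was not (at most 1.12 TPM), and CAV1 overlapped. ZEB1 was at 2.37 to 5.74 TPM in ER-Src, at least 6.57 TPM in set 1 and 0.82 to 1.44 TPM in set 2. PTPRC, a leukocyte gene, did not exceed 0.08 TPM. The targeted genes were lower in both knockdown libraries than in both controls in each ER-Src comparison and in set 2. The weakest was JUNB in ETH, at 3.9 and 8.55 TPM in JUNBi against 11.9 and 13.0 TPM in Ctrli. Under TAM, JUNB was at 16.35 and 18.86 TPM in JUNBi against 54.35 and 71.05 TPM in Ctrli. It was as low in STAT3i under TAM (14.44 and 14.88 TPM), so low JUNB RNA was not particular to JUNBi there. In set 1, WWTR1, the gene of TAZ, was at 4.34 and 2.29 TPM in YAPi_TAZi (replicates 1 and 2), 4.76 and 15.5 TPM in YAPi and 2.0 and 0.57 TPM in TAZi, so that in replicate 1 YAPi_TAZi was close to YAPi and above TAZi. As these are bulk samples, fewer cells of a type and less RNA per cell cannot be told apart.

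**Figure D1:**
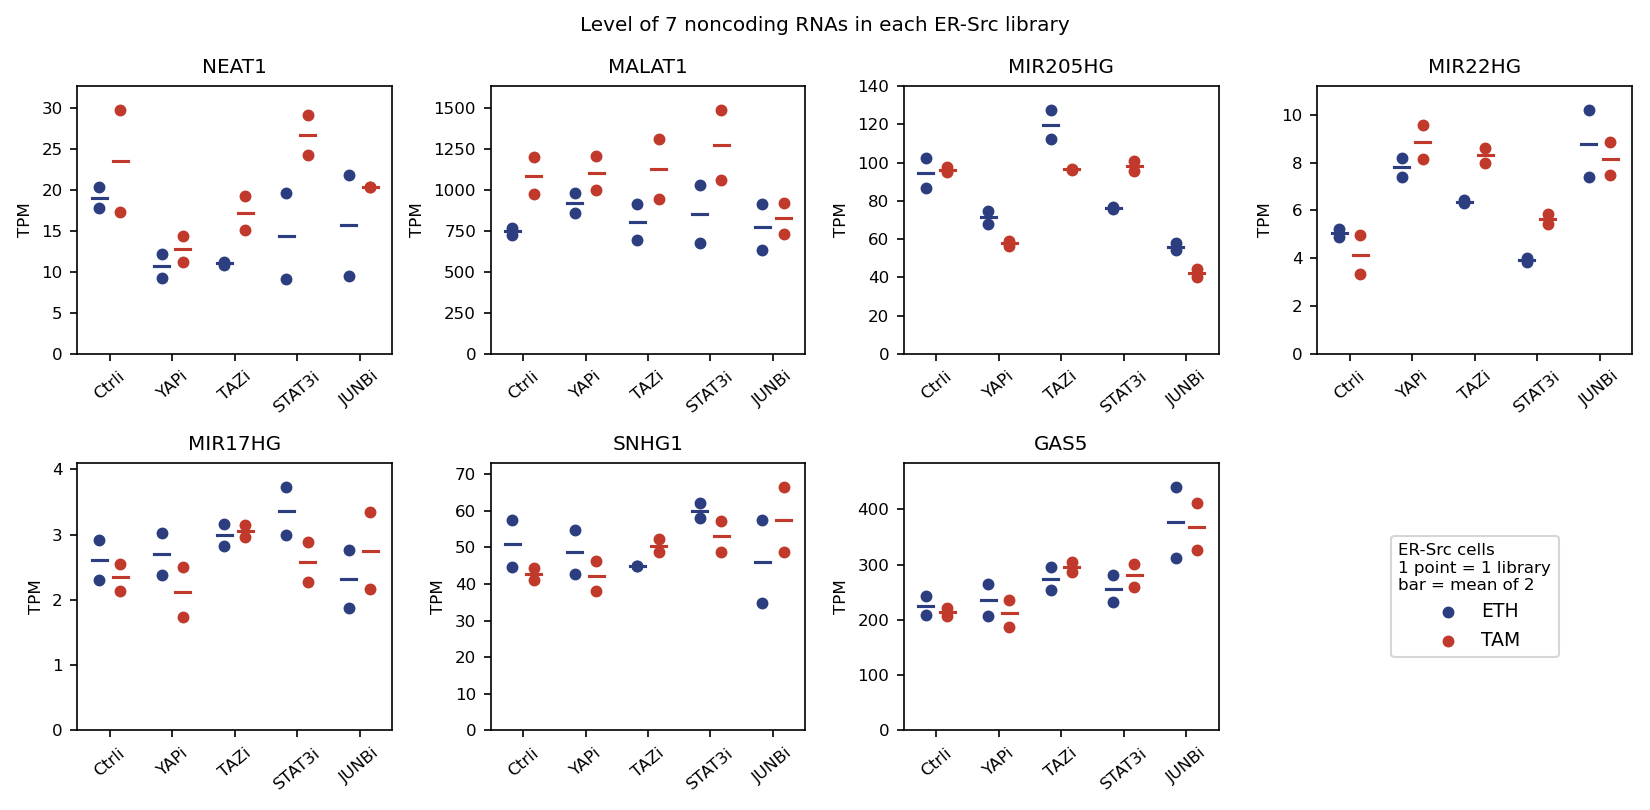
TPM of 7 members in each of the 20 ER-Src libraries, by siRNA (x axis) and treatment (colour), with 1 point per library and a bar at the mean of 2 libraries. MIR205HG was lowest in JUNBi under TAM (44.4 and 40.3 TPM), GAS5 was highest in the 4 JUNBi libraries (312.1 to 440.4 TPM), and the points of NEAT1 and MALAT1 spread widely within groups.

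In TPM, which allow genes to be compared per length, MALAT1 was the most abundant member in ER-Src (638.1 to 1488 TPM, median 933.9), followed by GAS5 (187.3 to 440.4, median 262.1) and MIR205HG (40.3 to 127.4, median 82.0). NEAT1 stood at 9.2 to 29.7 TPM (median 17.5), MIR22HG at 3.33 to 10.2 TPM (median 6.9) and MIR17HG at 1.74 to 3.73 TPM (median 2.8). H19 did not exceed 0.89 TPM and MIR31HG did not exceed 1.25 TPM. These 2 hosts were too low to follow, with 3.11 to 34 and 3 to 17.9 counts per library. Along the order of the 10 group means, the libraries of neighbouring groups overlapped in all 9 neighbour pairs for NEAT1, MALAT1 and MIR17HG. For MIR205HG 5 of the 9 neighbour pairs were separated and for MIR22HG 3. GAS5 and SNHG1 had 1 separated pair each, and that of GAS5 lay between the 2 JUNBi groups and the other 8 groups.

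Genes were called at an adjusted p under 0.01 in DESeq2. TAM against ETH with Ctrli changed 1 of the 9 members (MALAT1, higher), where 5.95% of all genes tested were called and 4.45% were higher. Over the 5 siRNAs together, TAM raised NEAT1, MALAT1 and MIR22HG, where 12.6% of all genes were called and 7.43% were higher. Against Ctrli in TAM, YAPi changed 3 members (MIR22HG higher, MIR205HG and MALAT1 lower, 10.2% of all genes called), TAZi changed 2 (MIR22HG and GAS5 higher, 3.42%, with 1.75% higher), JUNBi changed 4 (MIR22HG and GAS5 higher, MIR205HG and MALAT1 lower, 6.57%) and STAT3i changed none (7.53%). In ETH, MIR22HG rose in YAPi (11.1% of all genes called, 4.9% higher) and JUNBi (2.65% called, 1.13% higher), and no member was called in TAZi (4.97%) or STAT3i (0.126%). The 4 knockdown comparisons of a treatment share their 2 Ctrli libraries, so that a Ctrli library that lies apart moves all 4. All JUNBi and STAT3i libraries had a length term (length minus effective length) of 49.0 bases, where the other ER-Src libraries had 49.47 to 49.49. For every member, this difference cannot be told apart from the effects of these 2 knockdowns in any setting. None of the 4 tests of a difference between the TAM and ETH effects of a knockdown called a member (0.498% of all genes for YAPi, 0.544% for TAZi, 1.79% for STAT3i and 0.26% for JUNBi) in the fit of 1 knockdown with Ctrli. At an unadjusted p under 0.05 there were 2 members each for YAPi, TAZi and JUNBi and 0 for STAT3i, and edgeR called 0 members in each. Of the knockdown comparisons with no member called, STAT3i in TAM had 0 members at an unadjusted p under 0.05, STAT3i in ETH 1 and TAZi in ETH 3, and edgeR called 0 in each.

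**Figure D2:**
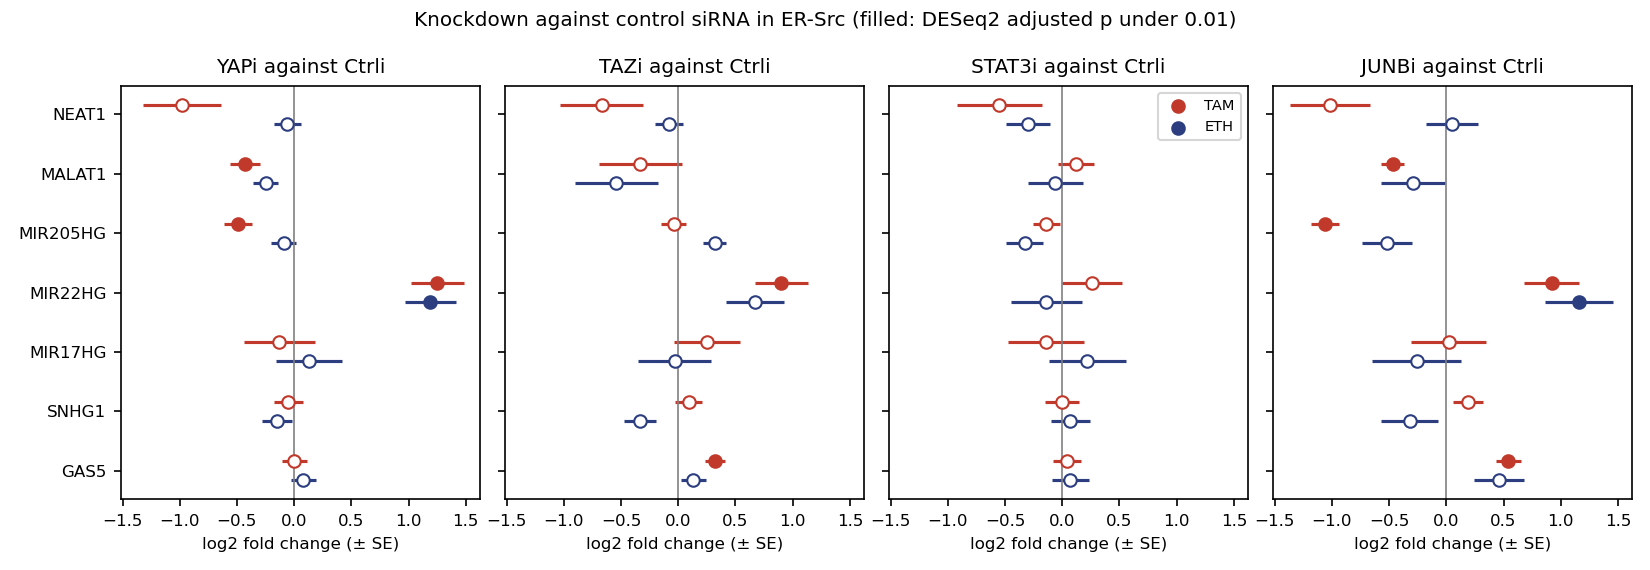
DESeq2 log2 fold change of each knockdown against Ctrli in ER-Src (x axis, bars are standard errors) for 7 members, in TAM and in ETH, with filled points for an adjusted p under 0.01. MIR22HG lies to the right in YAPi, TAZi and JUNBi, MIR205HG lies farthest to the left in JUNBi under TAM (-1.06), and STAT3i has no filled point.

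NEAT1, the scaffold RNA of paraspeckles, had more reads in TAM. Over all siRNAs its normalized counts were 6321 to 16740 (median 8122) in the 10 TAM libraries and 4207 to 7329 (median 5952) in the 10 ETH libraries. Both TAM libraries lay above both ETH libraries for 4 of the 5 siRNAs, the exception being JUNBi. The log2 fold change was 0.52 (SE 0.13, adjusted p 0.00071). Without the 4 STAT3i libraries it was 0.43 with an adjusted p of 0.013. With Ctrli alone, NEAT1 had 12772 and 7834 normalized counts in TAM and 4271 and 5261 in ETH, a larger difference that did not pass DESeq2 (log2 1.11, SE 0.38, adjusted p 0.04) and passed edgeR (adjusted p 0.0079). The 2 Ctrli TAM libraries differed from each other more than the 2 ETH libraries did, and with either of them left out the difference was called (0.71, adjusted p 0.00026, without TAM library 1, and 1.42, adjusted p 1.7e-19, without TAM library 2). Fitting the 10 ER-Src groups together called it too (1.1, adjusted p 5.6e-06).

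By normalized counts within TAM, NEAT1 was lower in the libraries of every knockdown than in both Ctrli libraries. None of the 4 differences passed in the fit of 1 knockdown with Ctrli. By TPM only the YAPi libraries (11.25 and 14.38 TPM) lay below both Ctrli libraries (17.3 and 29.74 TPM). Those of TAZi, JUNBi and STAT3i overlapped Ctrli, and STAT3i (24.27 and 29.13 TPM) had the highest mean of all ER-Src groups. The Ctrli libraries had 14151 and 8703 normalized counts beside 5831 and 5785 in YAPi (log2 fold change -0.98, SE 0.34, adjusted p 0.033). JUNBi had 5873 and 5416 beside 14161 and 8739 (log2 fold change -1.02, SE 0.35, adjusted p 0.033, and 0.0045 in edgeR). TAZi and STAT3i were at -0.67 (SE 0.36, adjusted p 0.36) and -0.55 (SE 0.37, adjusted p 0.4). The spread of the 2 Ctrli libraries weighed on all 4. Without Ctrli TAM library 2 all 4 differences were called, at -1.27 for YAPi (adjusted p 1.6e-13), -0.97 for TAZi (3.6e-13), -0.84 for STAT3i (0.00014) and -1.31 for JUNBi (1.5e-12). Without Ctrli TAM library 1, the higher one, none was called, at -0.57 for YAPi (adjusted p 0.012), -0.27 for TAZi (0.2), -0.14 for STAT3i (0.88) and -0.62 for JUNBi (0.014). Fitting the 10 ER-Src groups together called NEAT1 in YAPi (-0.99, adjusted p 5.9e-05) and JUNBi (-1.04, adjusted p 3.1e-05), a block for replicate number called it in YAPi (-0.93, adjusted p 2.5e-06), and offsets for effective length called none of the 4 (YAPi at -0.81, TAZi at -0.53, STAT3i at -0.15 and JUNBi at -0.36). In ETH the log2 fold changes of NEAT1 lay between -0.3 and 0.05 and the normalized counts of the libraries overlapped in all 4 comparisons. The test of TAM against ETH effects was nearest to its threshold for JUNBi (-1.1, SE 0.31, adjusted p 0.082), and without Ctrli TAM library 2 calls were made for YAPi (-1.23, adjusted p 3.2e-08), TAZi (-0.91, adjusted p 0.00079) and JUNBi (-1.4, adjusted p 0.0054). Without Ctrli TAM library 1 no call was made (-0.53, -0.21 and -0.71), and with offsets for effective length the differences were -0.14 for YAPi, 0.22 for TAZi and -0.01 for JUNBi, none called.

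RSEM also gave NEAT1 a length in each library, weighted over its isoforms, which serves as a second readout of a gene with a short and a long form. In ER-Src this length ran from 10358 to 22743 bases, the last being the full length of the longest isoform, reached in 3 libraries (JUNBi, TAZi and YAPi in ETH, replicate 2 of each). With Ctrli the 2 TAM libraries were longer, at 18444 and 18339 bases against 10832 and 12941 bases in ETH. The other siRNAs did not share that direction, since the length was greater in TAM in only 2 of 10 same-numbered pairs. Over all siRNAs it was 15958 ± 3540 bases (SD, n = 10) in TAM and 17721 ± 4625 bases (SD, n = 10) in ETH, with a two-sided exact permutation p of 0.329 over 7776 permutations within siRNAs (smallest p possible 0.00026). Because TPM divide by this length, the order of NEAT1 groups in TPM differed from that in counts. With offsets for effective length, the change in Ctrli was 0.57 (adjusted p 0.38), and in ETH NEAT1 was lower in YAPi (-0.69, adjusted p 6.2e-07) and TAZi (-0.78, adjusted p 5e-10). Reads that fit several isoforms are shared among them by a model, so the length is an estimate and not a count of each form.

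**Figure D3:**
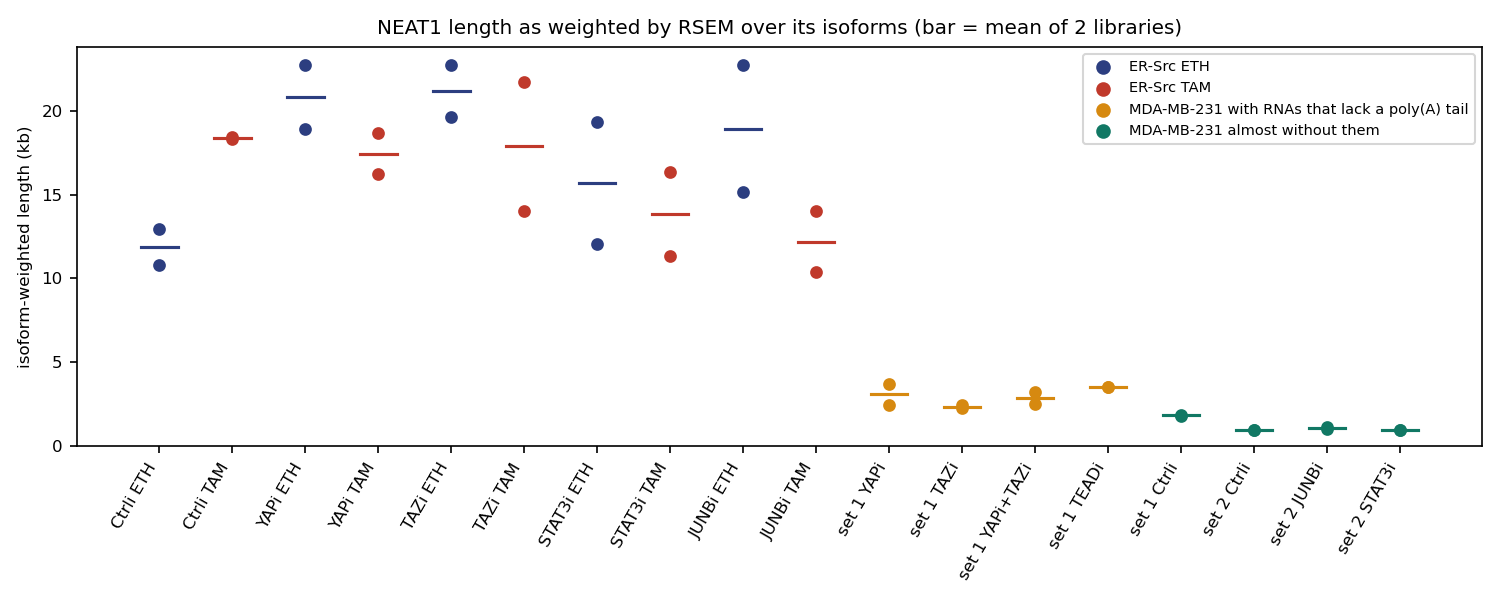
Isoform-weighted length of NEAT1 in kilobases (y axis) in the 36 libraries of 18 groups, with 1 point per library and a bar at the mean of 2. ER-Src libraries lie between 10.4 and 22.7 kb, the set 1 knockdowns between 2.24 and 3.67 kb, and the libraries almost without RNAs that lack a poly(A) tail between 0.93 and 1.84 kb.

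MALAT1, the other nuclear RNA, also rose in TAM. With Ctrli it had 85301 and 78033 normalized counts in TAM and 53700 and 60599 in ETH, with no overlap (log2 fold change 0.52, SE 0.09, adjusted p 1.2e-06). The call was lost without Ctrli ETH library 1 (adjusted p 0.03) and without Ctrli TAM library 1 (0.014). It was also lost when the 10 ER-Src groups were fitted together (0.5, adjusted p 0.63). Over the 5 siRNAs the log2 fold change was 0.49 (SE 0.15, adjusted p 0.0087, 0.019 in edgeR), and only with Ctrli did both TAM libraries exceed both ETH libraries. This call was lost without any 1 of 12 of the 20 libraries (adjusted p 0.013 to 0.033). Replicates of other siRNAs differed strongly, as in TAZi under TAM, with 89115 and 49655 normalized counts.

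Under TAM, MALAT1 fell in YAPi and JUNBi. YAPi had 75850 and 58354 normalized counts beside 94513 and 86681 in Ctrli (log2 fold change -0.43, SE 0.13, adjusted p 0.0096). JUNBi had 63476 and 67207 beside 94581 and 87042 (log2 fold change -0.47, SE 0.1, adjusted p 9.1e-05). In both, the knockdown libraries lay below the Ctrli libraries. The YAPi call did not hold in edgeR (adjusted p 0.06), and with offsets for effective length its direction turned (0.08, adjusted p 0.78). It was also lost without Ctrli library 1 (adjusted p 0.35), Ctrli library 2 (0.098) or YAPi library 2 (0.46). The JUNBi call was lost in edgeR (adjusted p 0.013), with the offsets (-0.54, adjusted p 0.043), and without Ctrli library 1 (0.2), Ctrli library 2 (0.032) or JUNBi library 1 (0.037). With the 10 groups fitted together neither call was made (-0.44, adjusted p 0.54 in YAPi, and -0.5, adjusted p 0.46 in JUNBi). STAT3i libraries, at 122747 and 80334, overlapped those of Ctrli (0.12, SE 0.16). In ETH MALAT1 was called in no knockdown, although it was lower in 3 of them without the knockdown's library 1 (TAZi at -0.95 with an adjusted p of 3.3e-12, STAT3i at -0.65 with 1.6e-05, and JUNBi at -0.82 with 1.3e-09). With offsets for effective length MALAT1 was called higher in YAPi under ETH (0.44, adjusted p 0.0007), whereas the fit without them gave -0.25 (SE 0.11, adjusted p 0.11).

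MIR205HG is the host of miR-205, a microRNA of basal epithelium, and its locus is known as a target of the basal factor TP63. It was the member with the clearest knockdown response. Under TAM the Ctrli libraries held 97.5 and 95.0 TPM, those of YAPi 58.9 and 56.7 TPM, and those of JUNBi 44.4 and 40.3 TPM. In TAZi it was at 96.2 and 96.9 TPM and in STAT3i at 101.1 and 95.9 TPM. The YAPi and JUNBi libraries thus lay well below those of Ctrli, and the TAZi and STAT3i libraries lay close to them.

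By counts, MIR205HG fell under TAM in JUNBi by 1.06 on the log2 scale (SE 0.12, adjusted p 5.5e-15), from 3702 and 3265 to 1729 and 1608 normalized counts. It fell in YAPi by 0.49 (SE 0.12, adjusted p 0.00054), from 3699 and 3252 to 2399 and 2545. The JUNBi call held in edgeR (adjusted p 0.00029) and in every other setting, and the YAPi call did not pass edgeR (0.015) or hold without Ctrli library 1 (0.28), Ctrli library 2 (0.024), YAPi library 1 (0.087) or YAPi library 2 (0.04). Under ETH, JUNBi libraries were again below Ctrli, with 2436 and 2269 beside 3465 and 3303 (log2 fold change -0.52, SE 0.22, adjusted p 0.2), whereas 1 fit over all 10 ER-Src groups called this difference (-0.51, adjusted p 1.1e-06), as did the fit without JUNBi library 1 (-0.58, adjusted p 0.0016). The effect of JUNBi in TAM against ETH differed by -0.57 (SE 0.22, adjusted p 0.5), and the fit over all 10 groups called this difference (-0.58, adjusted p 0.0022). TAZi in ETH had the highest levels of all groups, 112.5 and 127.4 TPM (log2 fold change 0.32, SE 0.1, adjusted p 0.029). TAM itself left MIR205HG at 0.29 (SE 0.11, adjusted p 0.078) with Ctrli and 0.04 (SE 0.08, adjusted p 0.82) over all siRNAs. TP63 fell in JUNBi under TAM (-1.31, SE 0.32, adjusted p 0.0011) and was at 0.61 in YAPi under TAM (SE 0.25, adjusted p 0.081), where MIR205HG was lower.

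MIR22HG, the host of miR-22, moved the other way. Under TAM the Ctrli libraries held 4.98 and 3.33 TPM. Those of YAPi held 9.57 and 8.15 TPM, those of TAZi 7.99 and 8.62 TPM, and those of JUNBi 8.84 and 7.49 TPM. STAT3i was at 5.86 and 5.44 TPM. The libraries of all 4 knockdowns lay above both Ctrli libraries, those of STAT3i by the least.

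Under TAM, MIR22HG rose by 1.25 on the log2 scale in YAPi (SE 0.23, adjusted p 1.3e-06), with 472.1 and 433.2 normalized counts beside 214.1 and 161.7 in Ctrli. It rose by 0.92 in JUNBi (SE 0.24, adjusted p 0.0033) and by 0.9 in TAZi (SE 0.23, adjusted p 0.0046), and STAT3i was at 0.26 (SE 0.26, adjusted p 0.64). The YAPi call held in edgeR (adjusted p 0.003) and was lost without YAPi library 1 (1.22, adjusted p 0.011). The JUNBi call held in edgeR (0.0048) and was lost without any 1 of its 4 libraries (0.76 to 1.15, adjusted p 0.043 to 0.26), and the TAZi call did not pass edgeR (0.016) and was lost without any 1 of its 4 libraries (0.72 to 1.14, adjusted p 0.4 to 0.72 where given). Under ETH it rose by 1.19 in YAPi (SE 0.22, adjusted p 1.8e-06), from 188.5 and 196.1 to 416.2 and 463.7 normalized counts. Without Ctrli library 1 this call was lost (1.15, adjusted p 0.013). JUNBi had 425.6 and 384.2 beside 177.9 and 185.5 (log2 fold change 1.16, SE 0.3, adjusted p 0.0063), and neither edgeR (0.067) nor the fits without Ctrli library 1 (1.0), Ctrli library 2 (0.91) or JUNBi library 1 (0.025) called it. TAZi in ETH was at 0.67 (SE 0.25, adjusted p 0.075) and STAT3i at -0.14 (SE 0.31, adjusted p 1.0). The tests of TAM against ETH effects gave -0.26 to 0.38 for the 4 knockdowns, each with an SE of 0.29 to 0.37.

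TAM raised MIR22HG over the 5 siRNAs by 0.37 (SE 0.08, adjusted p 7.2e-05), and for 4 of 5 siRNAs both TAM libraries lay above both ETH libraries in the normalized counts of that fit. With Ctrli alone the change was 0.31 (SE 0.29, adjusted p 0.8), and in TPM the Ctrli mean was 4.16 ± 1.17 (SD, n = 2) in TAM and 5.04 ± 0.23 (SD, n = 2) in ETH. WDR81, the gene on the other strand that an exon of MIR22HG overlaps, was looked up after the values of MIR22HG were seen. It was not called under TAM in YAPi (0.33, adjusted p 0.36), TAZi (0.24, adjusted p 0.69) or JUNBi (-0.22, adjusted p 0.64) and rose in YAPi under ETH (0.81, SE 0.22, adjusted p 0.0027).

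MIR17HG, the host of the miR-17 to miR-92a cluster and a known target of MYC and E2F factors, was not called in any ER-Src comparison. Its normalized counts over the 20 libraries lay between 118.6 and 204.9 in ETH and between 117.6 and 185.8 in TAM, and the TAM effect was 0.0 (SE 0.11, 95% interval -0.22 to 0.22). Its knockdown effects lay between -0.26 and 0.25 with SEs of 0.29 to 0.39. MIR31HG had 5 to 14 normalized counts in TAM and 7.7 to 21.6 in ETH (log2 fold change -0.58, SE 0.28, adjusted p 0.16). H19, the maternally expressed host of miR-675, had 2.6 to 29.1 and 5.8 to 14.4 (-0.03, SE 0.34), and at such counts a difference was not detectable.

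Of the snoRNA hosts among the members, GAS5 was the one called in ER-Src. Under TAM its normalized counts were 5453 and 5350 in JUNBi beside 3752 and 3668 in Ctrli (log2 fold change 0.54, SE 0.11, adjusted p 2.1e-05, 0.012 in edgeR). TAZi had 4422 and 4482 beside 3610 and 3512 (log2 fold change 0.32, SE 0.09, adjusted p 0.0092, 0.056 in edgeR). The JUNBi call was lost without Ctrli library 1 (adjusted p 0.037), Ctrli library 2 (0.036) or JUNBi library 1 (0.015), and the TAZi call without any 1 of its 4 libraries (0.056 to 1.0). YAPi and STAT3i, at 0.0 (SE 0.11) and 0.04 (SE 0.12), overlapped Ctrli. Under ETH the JUNBi libraries were above Ctrli as well, with 6053 and 5270 beside 4069 and 4163 (log2 fold change 0.46, SE 0.22, adjusted p 0.31), and 1 fit over the 10 groups called this difference (0.47, adjusted p 0.00048), as did the fit without JUNBi library 2 (0.57, adjusted p 0.00023). TAM changed GAS5 by 0.1 (SE 0.05, adjusted p 0.16) over all siRNAs. The length term of the JUNBi libraries (49.0 bases, against 49.47 to 49.49 outside JUNBi and STAT3i) cannot be told apart from the knockdown here either.

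SNHG1, the other snoRNA host, was called in no ER-Src comparison, and its normalized counts stayed between 1122 and 1781 in all 20 libraries. Its largest knockdown effects were -0.33 in TAZi (SE 0.14, adjusted p 0.13) and -0.32 in JUNBi (SE 0.25, adjusted p 0.7), both in ETH. The 20 listed ribosomal protein genes, which share with GAS5 the oligopyrimidine tract, had a median of -0.03 in JUNBi under TAM, with 0 higher and 0 lower. Among 21 other snoRNA hosts, 2 rose there (6.57% of all genes called), SNHG29 (0.41, SE 0.11, adjusted p 0.003) and SNHG16 (0.38, SE 0.11, adjusted p 0.0092), with a median of 0.28 beside 0.02 over all genes. Under TAM, 3 of the 21 were lower in YAPi (10.2% of all genes called), 1 was lower in STAT3i (7.53%) and 1 was higher in TAZi (3.42%). In YAPi under ETH 1 was higher and 1 lower (11.1%), and none was called in the other knockdowns in ETH.

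In the set 1 knockdowns of MDA-MB-231, libraries of replicate 1 and replicate 2 also differed in their length term (48.0 against 74.6 bases), so that values are given within each replicate number. By normalized counts, NEAT1 was highest in the combined knockdown YAPi_TAZi. In replicate 1 NEAT1 had 296.7 normalized counts in YAPi, 386.1 in TAZi, 641.8 in YAPi_TAZi and 501.5 in TEADi. In replicate 2 it had 381.7, 493.3, 707.9 and 579.7 in the same order of groups. Both replicates thus ranked the 4 knockdowns alike, with YAPi lowest and YAPi_TAZi highest.

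Against YAPi, YAPi_TAZi changed 2 members, where 7.87% of all genes were called. NEAT1 was higher by 0.99 (SE 0.17, adjusted p 1.9e-07), at 1.11 and 0.89 within the 2 replicates. SNHG1 fell by 0.75 (SE 0.2, adjusted p 0.0025), at -0.74 and -0.77 within replicates, from 242.5 and 279.1 to 145.5 and 163.2 normalized counts. Against TAZi, YAPi_TAZi changed the same 2 genes, where 6.8% of all genes were called, with NEAT1 higher by 0.61 (SE 0.17, adjusted p 0.0038) and SNHG1 lower by 0.69 (SE 0.2, adjusted p 0.0076). These 2 comparisons share the YAPi_TAZi libraries. The NEAT1 call against YAPi held in edgeR (adjusted p 0.0033), while that against TAZi (0.033) and both calls of SNHG1 did not (0.01 and 0.018). With offsets for effective length in DESeq2, NEAT1 was called in YAPi_TAZi against YAPi (1.07, adjusted p 7e-06). Against TAZi it was not (0.29, adjusted p 0.57), and TAZi was called higher than YAPi (0.78, adjusted p 0.0072). Without any 1 of the 8 libraries the NEAT1 call against YAPi held. That against TAZi was lost without either TAZi library (adjusted p 0.36 and 0.02), either YAPi_TAZi library (0.024 and 0.13) or TEADi library 1 (0.027). SNHG1 was lost against YAPi without any 1 library but TEADi library 2 (0.014 to 0.12) and against TAZi without any 1 of the 8 (0.014 to 0.55).

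MALAT1 had 4556, 5024, 7252 and 5286 normalized counts in YAPi, TAZi, YAPi_TAZi and TEADi of replicate 1, and 6378, 6888, 9633 and 6988 in replicate 2. YAPi_TAZi was highest in each replicate, but replicate 2 was above replicate 1 in every group and the differences were not called (0.63, SE 0.21, adjusted p 0.025 against YAPi, and 0.5, SE 0.21, adjusted p 0.11 against TAZi). Against YAPi the call was made without YAPi library 2 (0.88, adjusted p 0.0077). Once a block for replicate number was added, MALAT1 was called higher in YAPi_TAZi than in YAPi (0.63, adjusted p 7.8e-27) and TAZi (0.51, adjusted p 2.3e-17) and lower in TEADi than in YAPi_TAZi (-0.46, adjusted p 3e-14). Its log2 ratios within replicates were 0.67 and 0.59, 0.53 and 0.48, and -0.46 and -0.46 in the same order. Without that block or length offsets, no member was called by DESeq2 or edgeR in TAZi against YAPi (2.99% of all genes called). The same held in TEADi against YAPi_TAZi (5.25%), and each had 1 member at an unadjusted p under 0.05 (NEAT1 and MALAT1). In these DESeq2 comparisons MIR17HG, H19, MIR205HG and MIR31HG had no adjusted p. TEADi and YAPi_TAZi had close levels of SNHG1, with 162.1 and 146.8 beside 145.5 and 163.2 normalized counts (-0.01, 95% interval -0.42 to 0.4). GAS5 ranged only from 220.8 to 307.7 normalized counts over the 8 libraries. MIR22HG, at 62.5 to 126.3, showed no difference past the threshold, and the knockdowns could not be set against a control of the same kind.

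**Figure D4:**
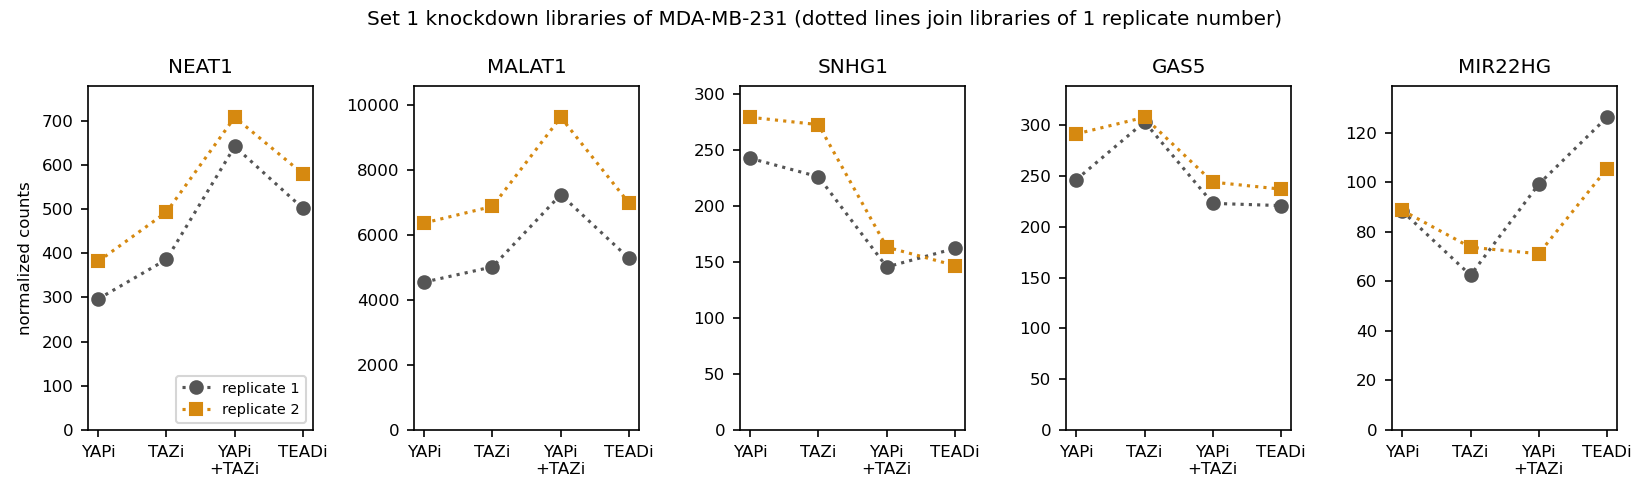
Normalized counts (y axis, from 0) of 5 members in the 8 set 1 knockdown libraries of MDA-MB-231, with dotted lines that join libraries of the same replicate number. NEAT1 is highest in YAPi_TAZi in both replicates (641.8 and 707.9), and SNHG1 is lower in YAPi_TAZi and TEADi (145.5 to 163.2) than in YAPi and TAZi (226 to 279.1).

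In set 2 no member was called in JUNBi (6.1% of all genes called) or STAT3i (0.135%) against Ctrli by DESeq2 or edgeR, and at an unadjusted p under 0.05 there was 1 member in JUNBi (SNHG1) and 0 in STAT3i. For JUNBi, DESeq2 gave an adjusted p to 5247 genes, and among the members only to NEAT1, MALAT1, SNHG1 and GAS5. For STAT3i, MIR22HG had one too. The members without one were not tested at the threshold. SNHG1 had 867.1 and 466.9 normalized counts in Ctrli and 1000 and 1122 in JUNBi (log2 fold change 0.67, SE 0.28, adjusted p 0.083). The 2 controls differed more from each other than did the 2 JUNBi libraries, and without Ctrli library 3 the difference was 1.19 with an adjusted p of 0.00011. GAS5 was at 0.02 (SE 0.18, 95% interval -0.33 to 0.37) in JUNBi and -0.02 (SE 0.16) in STAT3i, and NEAT1 at -0.04 (SE 0.19) and 0.01 (SE 0.18). MALAT1, with 225 to 650 counts per library in set 2, was at 0.44 (SE 0.32) and 0.2 (SE 0.28), and MIR22HG at 0.34 (SE 0.3) and 0.1 (SE 0.33). MIR17HG was at -1.35 (SE 0.84) in JUNBi and -1.17 (SE 0.88) in STAT3i.

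**Figure D5:**
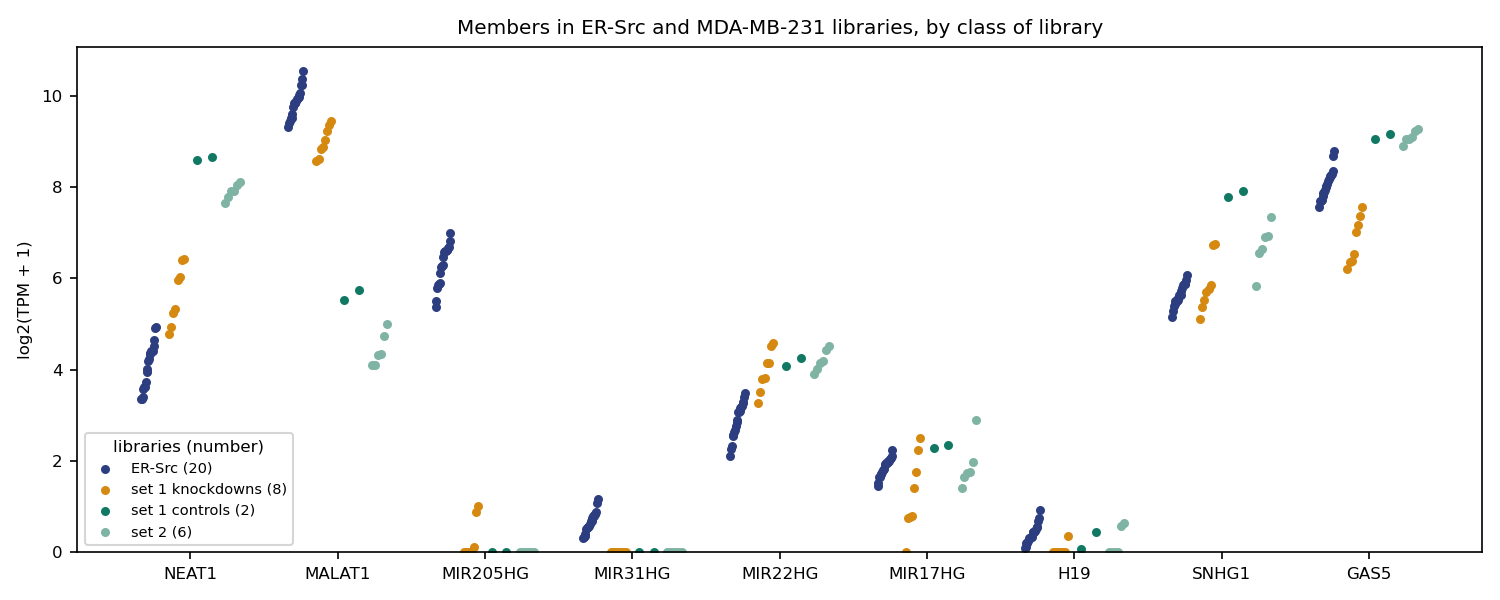
Level of the 9 members as log2(TPM + 1) in each library, with ER-Src, set 1 knockdown, set 1 control and set 2 libraries side by side (numbers of libraries in the key). MALAT1 reaches at most 52.6 TPM and NEAT1 at least 201.1 TPM in the libraries almost without RNAs that lack a poly(A) tail, against 381.8 TPM and more for MALAT1 and 85.5 TPM and less for NEAT1 in the others.

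Between kinds of library the levels are set side by side and not compared. In the 8 MDA-MB-231 libraries almost without RNAs that lack a poly(A) tail, MALAT1 stood at 16.1 to 52.6 TPM and NEAT1 at 201.1 to 403.2 TPM. In the 8 set 1 knockdown libraries MALAT1 stood at 381.8 to 698.6 TPM and NEAT1 at 26.7 to 85.5 TPM. GAS5 was at 479.4 to 620.0 TPM in the former and 72.9 to 187.1 TPM in the latter. Within set 1 this coincides with control against knockdown, and the 2 cannot be told apart.

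The lines were compared where siRNA and kind of library matched, with YAPi and TAZi of set 1 (4 libraries) beside YAPi and TAZi of ER-Src in TAM (4 libraries). There 6 of the 9 members were lower in MDA-MB-231 and none higher, where 44.8% of all genes were called and 23.6% were lower. The median of the 9 members was -1.71 and that of all genes -0.07, which moved to -0.18 with another scaling (TMM), and with that no member changed direction and SNHG1 was called too (-0.32, adjusted p 0.007), which makes 7 of 9. The line cannot be told apart from the set in which it was sequenced, nor from tamoxifen, which only these ER-Src libraries had. With the ETH groups of ER-Src in their place, MIR31HG lost its call (-3.8, adjusted p 0.012) and no other member gained or lost one. The length term was 49.48 or 49.49 bases in ER-Src under TAM and 48.0 or 74.6 bases in set 1.

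MIR205HG set the lines apart most. The ER-Src libraries held 15630 counts of it (of 56478865) and the MDA-MB-231 libraries 2 (of 8890578), a depth-scaled ratio of 1230 (exact 95% interval 340 to 10200, counting error only). Its log2 fold change was -10.52 (SE 1.08, adjusted p 4.2e-21). In all of MDA-MB-231 MIR205HG had 5 counts, all in replicate 1 of YAPi, YAPi_TAZi and TEADi of set 1. The 4 knockdown libraries of replicate 1, and no other of set 1, also held 30 to 38 counts of KRT5, and whether the 2 are linked was not tested. MIR31HG was at 0 in all 16 MDA-MB-231 libraries, which allows up to 3 of 101332241 counts. With 50 counts in the 4 ER-Src libraries it was at least 2.62-fold higher there, computed against a floor of 3 counts over the group. Its call (adjusted p 0.0099) was lost without any 1 of the 8 libraries, and edgeR's count minimum left it out. H19 had 31 and 1 counts, a ratio of 4.88 (exact 95% interval 0.813 to 199).

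Among the abundant members, GAS5 was lower in MDA-MB-231, with 622.2 to 770.3 normalized counts beside 1983 to 2673 (log2 fold change -1.71, SE 0.09, adjusted p 2.3e-83). MALAT1 was at 11509 to 17242 beside 29616 to 52900 (log2 fold change -1.47, SE 0.2, adjusted p 9.2e-13). NEAT1 had 749.5 to 1235 beside 3282 to 4390 (log2 fold change -1.92, SE 0.11, adjusted p 1.8e-65), but its weighted length was also shorter, and with offsets for effective length it was higher in MDA-MB-231 (0.76, adjusted p 7.7e-06). MIR17HG was lower (log2 fold change -1.1, SE 0.3, adjusted p 0.00069), a call lost without TAZi library 1 (0.011) or TAZi library 2 (0.013) of ER-Src. SNHG1 (-0.22, SE 0.11, 95% interval -0.43 to -0.01, adjusted p 0.065) and MIR22HG (-0.21, SE 0.12, 95% interval -0.45 to 0.03, adjusted p 0.14) were not called. GAS5 was not alone among genes of translation, since all 20 listed ribosomal protein genes were lower (median -1.02), as were 15 of 21 other snoRNA hosts with 1 higher (median -0.9). Of all genes, 44.8% were called there and 23.6% were lower.

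Genes that work with the members were counted from lists. Of 10 paraspeckle proteins, HNRNPH3, an RNA-binding protein, was called in most knockdowns. In ETH it fell in YAPi (-1.86, SE 0.17, adjusted p 2.3e-25), TAZi (-1.76, SE 0.2, adjusted p 3.5e-16) and JUNBi (-1.58, SE 0.3, adjusted p 1.6e-05). In TAM, HNRNPH3 fell in YAPi (-1.46, SE 0.2, adjusted p 7e-11), TAZi (-1.07, SE 0.2, adjusted p 9.4e-06) and JUNBi (-0.9, SE 0.17, adjusted p 3.7e-06). Of the 10, 2 were lower in YAPi in both treatments, 1 in TAZi in TAM and 2 in ETH, 2 in JUNBi in TAM and 1 in ETH, and 0 in STAT3i. Of all genes, the shares called in TAM and ETH were 10.2% and 11.1% for YAPi and 3.42% and 4.97% for TAZi. They were 6.57% and 2.65% for JUNBi and 7.53% and 0.126% for STAT3i. None was higher in these 8 comparisons, and the medians over the list lay between -0.2 and -0.01. TAM against ETH with Ctrli called 0 of the 10 (5.95% of all genes), and over the 5 siRNAs 1 was lower (12.6%). No difference between the TAM and ETH effects of a knockdown was called.

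Of 8 genes of microRNA processing, DICER1 responded. It rose in TAM by 1.31 with Ctrli (SE 0.14, adjusted p 1e-18) and by 0.83 over all siRNAs (SE 0.13, adjusted p 1.3e-08), where DGCR8 fell by 0.25 (SE 0.07, adjusted p 0.0029). Under TAM, DICER1 fell in STAT3i (-1.1, SE 0.14, adjusted p 2.5e-12), and this effect differed from that in ETH (-1.33, SE 0.23, adjusted p 1e-06). It rose in YAPi under ETH (0.75, SE 0.14, adjusted p 5.7e-06), and no other gene of the list was called in the 8 knockdown comparisons of ER-Src.

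Of 15 other microRNA hosts, MIR210HG, whose locus is known to respond to hypoxia, rose in TAM with Ctrli (3.17, SE 0.75, adjusted p 0.00062, 24.6 normalized counts on average) and fell under TAM in YAPi (-4.25, SE 0.83, adjusted p 9.9e-06), JUNBi (-3.26, SE 0.74, adjusted p 0.00035) and STAT3i (-2.28, SE 0.65, adjusted p 0.0059). MIRLET7BHG, a host of let-7 microRNAs, fell under TAM in STAT3i (-0.93, SE 0.22, adjusted p 0.00045) and JUNBi (-0.8, SE 0.23, adjusted p 0.006). No other host of the list was called in a knockdown of ER-Src, and none of the 9 to 15 tested in ETH was. Of 16 other long noncoding RNAs, NORAD, which binds PUMILIO proteins, rose in YAPi, at 0.56 in TAM (SE 0.11, adjusted p 1.3e-05) and at 0.69 in ETH (SE 0.11, adjusted p 7.7e-09) and in JUNBi under TAM (0.47, SE 0.12, adjusted p 0.0025), and KCNQ1OT1 rose in JUNBi under ETH (1.23, SE 0.26, adjusted p 0.00023).

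The genes most like each member were found over the 10 ER-Src group means of log2(TPM + 1), among 9936 genes with at least 100 normalized counts on average. Each point rests on 2 libraries and TPM of 1 library share its total, so the values of Pearson's r are descriptions. MIR22HG was most like SULT1A3 (0.956) and FTL (0.936), MIR205HG like NDUFA11 (0.92) and PRDX2 (0.909), GAS5 like MIA3 (0.955) and SUPT7L (0.952), and SNHG1 like HSPA14 (0.975) and WDR36 (0.97). NEAT1 was most like PIGA (0.904) and MYD88 (0.903), MALAT1 like KCNJ15 (0.92) and SPHK1 (0.89), and MIR17HG like ZBTB2 (0.92) and WDR46 (0.918). MIR31HG and H19 were below the count minimum.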

How the data were processed

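RNA-seq of 36 libraries was analysed, whose RNA selection is not labelled per library. Per the labels and the study's methods, the authors aligned reads with STAR to hg38 transcripts and quantified genes with RSEM (versions not given in the sources used here), depositing for each library expected counts, TPM, FPKM and lengths weighted over isoforms. The deposited TPM are relative to each library's total and served for levels. The deposited expected counts were rounded to whole numbers and tested over all genes with DESeq2 1.42.0 (default size factors, Wald test, Benjamini-Hochberg adjustment, threshold 0.01) in R 4.3.3. FPKM were not used. Rows that were not Ensembl genes (746 of 61471) were left out. Each ER-Src knockdown was fitted with Ctrli of the same treatment only, and TAM against ETH with Ctrli was fitted on those groups alone. The tests of a difference between treatments held Ctrli and 1 knockdown in both treatments. Other fits held all 20 ER-Src libraries with siRNA as a term, the 8 set 1 knockdown libraries, or 1 set 2 knockdown with its controls. The lines were compared in a fit of YAPi and TAZi of set 1 and of ER-Src in TAM, with siRNA as a term. The script was tested on simulated data.

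Normalized counts are on the scale of the fit named, so that a Ctrli library has a different value in each. Alternatives were edgeR 4.0.16 (quasi-likelihood test), TMM size factors, a mean count of at least 10, offsets for effective length, the replicate number as a block, other sets of groups and leaving out each library. The 2 libraries of each group differed by more than sampling noise. Members and gene lists were chosen with earlier results of these data known, and members alone were described in full, with genes of the lists named where they were called. WDR81 was chosen after values were seen. Intervals from counts cover counting error only. A gene of the lists is not reported here, and the counts leave it out.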

Additional observations from a re-analysis of the deposited data

How the results depend on the processing

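Under alternatives other than leaving out a library, 251 values of single members kept direction and side of the threshold, 18 passed newly, 43 were lost and 3 turned. With offsets for effective length MALAT1 turned to 0.08 in YAPi under TAM and 0.44 in YAPi under ETH, and NEAT1 turned to 0.76 in MDA-MB-231 against ER-Src. The cause was not tested.

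Members called of 9 moved as follows. With edgeR they went from 1 to 2 in TAM against ETH with Ctrli, 3 to 1 for YAPi and 2 to 0 for TAZi in TAM, 1 to 0 for JUNBi in ETH, 2 to 1 for YAPi_TAZi against YAPi and 2 to 0 against TAZi. With offsets they went from 2 to 0 for TAZi and 4 to 2 for JUNBi in TAM, 1 to 3 for YAPi, 0 to 1 for TAZi and 1 to 0 for JUNBi in ETH, 0 to 1 for TAZi against YAPi in set 1, and 2 to 1 and 2 to 0 for YAPi_TAZi against YAPi and TAZi. The last pair was 1 and 0 with TMM or a mean count of at least 10, and 1 and 1 with only the groups compared. The count minimum left 1 for TAZi in TAM. Fitting the 10 ER-Src groups together gave 1 for TAZi in TAM, 2 for TAZi and 3 for JUNBi in ETH, and 1 for the JUNBi difference between treatments. Without the 4 STAT3i libraries the TAM effect over siRNAs kept 1 of 3.

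Leaving out 1 library gave 0 to 2 in TAM against ETH with Ctrli, 2 to 3 over siRNAs, 1 to 2 for YAPi, 0 to 1 for TAZi, 0 to 1 for STAT3i and 1 to 3 for JUNBi in TAM, 0 to 1 for YAPi, TAZi and STAT3i and 0 to 2 for JUNBi in ETH, 0 to 1 for the differences between treatments except STAT3i (0 to 0), 1 to 2 for YAPi_TAZi against YAPi, 0 to 1 against TAZi, 0 to 1 for JUNBi in set 2 and 4 to 5 between lines. The length difference of NEAT1 ran from -2532.2 to -992.4 bases.

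With the replicate number as a block, calls in TAM went from 2 to 0 for TAZi, from 3 to 2 for YAPi (MALAT1 at 0.013 and MIR205HG at 0.025 lost, NEAT1 gained at 2.5e-06) and from 4 to 3 for JUNBi (MIR22HG lost, 0.028), and MALAT1 was gained in set 1 (2 to 3 for YAPi_TAZi against YAPi and TAZi, 0 to 1 for TEADi against YAPi_TAZi). In ER-Src the deviations of same-numbered libraries correlated at -0.361 to 0.703 in the fit over siRNAs. Pairs of groups thus differed in sign, and whether the number marks a batch there is not labelled. In set 1 they correlated at 0.525 to 0.585 and the number went with the length term, and whether it marks a batch is not labelled. Over all genes the block moved the calls from 971 to 629 (TAM with Ctrli), 1538 to 761, 470 to 176 and 1159 to 662 (YAPi, TAZi and STAT3i in TAM), 1714 to 1110, 731 to 414 and 36 to 12 (in ETH), 45 to 99 (JUNBi difference) and, in set 1, 271 to 573, 794 to 1334, 721 to 1191 and 530 to 963. No paired analysis was possible because controls of set 2 are numbered 3 and 4 and its knockdowns 1 and 2.

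Counts of all genes called also moved with edgeR, from 470 to 195 (TAZi in TAM), 36 to 0 and 414 to 1 (STAT3i and JUNBi in ETH), 78 to 15, 79 to 5, 235 to 56 and 45 to 0 (differences between treatments for YAPi, TAZi, STAT3i and JUNBi), 271 to 112 and 530 to 338 (TAZi against YAPi and TEADi against YAPi_TAZi), and 320 to 0 and 14 to 0 in set 2, where edgeR had 2605 and 842 genes at an unadjusted p under 0.05. At that p it had 1065 for STAT3i in ETH and 1337 for the JUNBi difference. One fit over all groups gave 1770 for JUNBi in ETH, 50, 21 and 126 for the YAPi, TAZi and JUNBi differences, and 579 for JUNBi in set 2. Offsets gave 14 for STAT3i in ETH, 121 for the TAZi difference and 103, 358, 349 and 212 in set 1, where TMM gave 156, 511, 476 and 340 and the 2 groups alone 140 and 398. The shallow set 1 knockdowns limit what could be seen of MIR17HG there, at 0 to 19.1 normalized counts.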

Other observations

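Among the 16 other long noncoding RNAs, LINC00511 (0.88, adjusted p 7.1e-13) and LINC-PINT (0.61, adjusted p 5.8e-08) rose in TAM over the 5 siRNAs and CRNDE fell (-0.43), with a median of -0.06 over the 14 tested. Of all genes, 12.6% were called there and 7.43% were higher. In set 1, NORAD was higher (0.54, SE 0.13, adjusted p 0.00046) and CYTOR lower (-0.89) in YAPi_TAZi than in TAZi, and NORAD (-0.63, SE 0.13, adjusted p 2.7e-05) and OIP5-AS1 (-0.74) were lower in TEADi than in YAPi_TAZi.

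Among 21 other snoRNA hosts, SNHG15 (0.37) and SNHG16 (0.18, SE 0.05, adjusted p 0.0048) rose and DANCR fell (-0.21) in TAM over the 5 siRNAs (12.6% of all genes called). In set 1, SNHG16 fell by 1.25 in TEADi against YAPi_TAZi (SE 0.16, adjusted p 6.6e-12). SNHG5 fell by 0.99 in YAPi_TAZi against YAPi (adjusted p 0.0028) and was higher by 0.93 in TEADi than in YAPi_TAZi. Of the 20 ribosomal protein genes, 9 rose in TAM over the 5 siRNAs (median 0.15) and 0 fell, where 7.43% of all genes were higher.

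E2F1, a factor known to act on the MIR17HG locus, was lower in YAPi_TAZi than in YAPi (-1.74, adjusted p 1.9e-05) and TAZi (-2.42, adjusted p 2e-10), and fell in JUNBi of set 2 (-0.9, adjusted p 0.00049). MIR17HG itself had 5.7 to 19.1 normalized counts in YAPi, TAZi and YAPi_TAZi, too few for an adjusted p.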
